A study of Homo sapiens with 3 samples.

Results

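The 38 genes described here encode the glycolytic pathway and the cellular response to low oxygen. Of these, 24 are glycolytic enzymes, sugar and lactate transporters or regulators of glycolytic flux, and the other 14 belong to or respond to the hypoxia-inducible factor (HIF) system. They were taken by gene symbol from a table of 58037 genes, and all 38 were found in it. The genes were counted by poly(A) RNA sequencing in A375 cells, an established line from a human melanoma, in 3 libraries with 1 library per group. Control cells were kept in serum free DMEM. The other groups received the secretome of young adipocytes (YA) or of old adipocytes (OA), which is serum free DMEM conditioned by washed human adipocytes. Those adipocytes had been differentiated from donor preadipocytes with insulin, dexamethasone, indomethacin and IBMX, which leaves part of the preadipocytes undifferentiated, and how many donors supplied each secretome used for sequencing was not given in the sources used here. In the study's donor list most young donors were female and all old donors male, and the groups also differed in body site and source. Between OA and YA, donor age and other donor traits therefore cannot be told apart. The exposure was 24 h per the series description, although the treatment label allows a longer time.

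Glycolysis splits glucose into pyruvate in the cytosol, and lactate dehydrogenase turns pyruvate into lactate, which leaves the cell through monocarboxylate transporters. HIF is a transcription factor made of an alpha subunit, HIF1A or EPAS1 (also called HIF-2 alpha), and the partner ARNT. In oxygen, prolyl hydroxylases of the EGLN family mark the alpha subunits for destruction, and in hypoxia the stabilised protein binds the core ACGTG, or its variant with G in place of the first base, in promoters and enhancers of genes for glycolysis, blood vessel growth and pH control. Because HIF is controlled mainly at the protein level, the transcript of an alpha subunit is not a measure of its activity.

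Counts summed to 21448195 in control, 21306558 with YA and 18089008 with OA. The filter of a mean normalised count of at least 20 was passed by 14413 genes and by 36 of the 38 members, all 24 of the glycolytic group and 12 of the 14 HIF-responsive genes, while CA12 and EGLN3 lay below it. As a check of identity, each library had more than 3 counts for 9 of 13 melanocytic and melanoma markers, though not for the same 9, with all 3 libraries holding CSPG4, MITF, S100B, PAX3 and TFAP2A, whereas SOX10 was at 0 in all 3 libraries and PMEL, TYR, TYRP1 and DCT had at most 10 counts. Of 15 adipocyte markers, 9 had more than 3 counts in control, 10 with YA and 8 with OA, and their summed normalised counts were 6969, 7655 and 7040. Leptin (LEP) was at 0 in all 3 libraries, ADIPOQ had at most 1 count and PLIN1 at most 5, whereas PLIN4 had 284, 579 and 321 counts, CIDEC 6, 31 and 36, LPL 353, 583 and 30, and PPARG at least 1530. The summed normalised counts of 14 fibroblast and preadipocyte markers were 857.5 in control, 1198 with YA and 1661 with OA, and without COL6A3, which had 145, 302 and 886 counts, they were 720.9, 913 and 666.8. DCN had 13, 138 and 24 counts, PDGFRA 76, 20 and 51, and COL1A2 and COL3A1 no more than 2. The part of these markers in the results was not tested.

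With 1 library per group no difference has a replicate check, no p-value was computed, and every fold compares 2 libraries rather than 2 conditions. A gene was counted as higher or lower where its normalised counts differed by at least 1.2-fold in that direction. The limit follows the value, given without a unit, by which the study chose higher genes for pathway analysis, and it was taken here as a fold and applied in both directions. An interval call was made where the 95% Clopper-Pearson interval of the fold, which covers counting error only, lay wholly beyond 1.2-fold. Gene positions are those of GENCODE 29 on GRCh38. YA and OA were both compared with the same control library, so these comparisons are not independent of each other.

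Promoters are shown for 6 members on which the results below turn: CA9 and ALDOC, the members furthest above control in YA among those past the filter; ENO2, LDHA and HIF1A, which were higher in OA; and PFKFB3, which was lower in YA. Each is the 250 bases before a RefSeq start on GRCh38.p14, 5′ to 3′ on the strand of the gene, with the core in capitals. The core was searched as ACGTG and in its variant form GCGTG, and on the opposite strand, where these read CACGT for the former but CACGC for the latter. Where RefSeq lists several starts, the window with the most matches is shown. All 6 windows shown hold a match, which is not so for every member, as given below.
CA9 (chr9:35673678-35673927, plus strand): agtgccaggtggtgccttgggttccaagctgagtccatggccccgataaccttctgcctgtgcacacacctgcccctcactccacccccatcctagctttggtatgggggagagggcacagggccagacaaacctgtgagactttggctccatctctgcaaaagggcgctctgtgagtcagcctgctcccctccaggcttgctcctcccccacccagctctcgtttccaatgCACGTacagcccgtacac
ALDOC (chr17:28576896-28577145, minus strand): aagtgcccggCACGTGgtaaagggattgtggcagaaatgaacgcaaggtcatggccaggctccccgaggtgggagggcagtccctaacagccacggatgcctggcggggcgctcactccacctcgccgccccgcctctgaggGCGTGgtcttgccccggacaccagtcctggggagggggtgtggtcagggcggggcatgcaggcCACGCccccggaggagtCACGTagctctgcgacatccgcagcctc
ENO2 (chr12:6914330-6914579, plus strand): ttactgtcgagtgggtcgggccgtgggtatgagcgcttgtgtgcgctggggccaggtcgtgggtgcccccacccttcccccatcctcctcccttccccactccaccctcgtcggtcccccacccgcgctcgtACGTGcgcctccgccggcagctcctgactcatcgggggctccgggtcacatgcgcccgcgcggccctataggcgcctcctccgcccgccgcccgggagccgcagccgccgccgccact
LDHA (chr11:18394313-18394562, plus strand): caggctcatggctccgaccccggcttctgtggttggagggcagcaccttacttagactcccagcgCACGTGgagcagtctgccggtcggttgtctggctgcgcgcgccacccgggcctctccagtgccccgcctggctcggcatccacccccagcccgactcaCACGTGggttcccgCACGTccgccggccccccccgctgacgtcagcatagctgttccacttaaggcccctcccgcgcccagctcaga
PFKFB3 (chr10:6202682-6202931, plus strand): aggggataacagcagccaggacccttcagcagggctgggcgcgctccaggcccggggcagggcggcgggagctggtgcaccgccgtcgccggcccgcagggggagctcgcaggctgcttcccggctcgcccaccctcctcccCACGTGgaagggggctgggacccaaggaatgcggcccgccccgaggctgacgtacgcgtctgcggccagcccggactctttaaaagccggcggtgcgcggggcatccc
HIF1A (chr14:61695263-61695512, plus strand): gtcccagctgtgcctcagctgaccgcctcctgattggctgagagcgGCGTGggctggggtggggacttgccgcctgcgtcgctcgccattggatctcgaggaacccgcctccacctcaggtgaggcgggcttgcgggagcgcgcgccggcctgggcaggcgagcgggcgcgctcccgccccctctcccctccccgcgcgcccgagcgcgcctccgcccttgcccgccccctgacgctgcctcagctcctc

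The CA9 window had its only match 13 bases before the start, and the ALDOC window had matches at 4 places, the nearest 23 bases before the start. In ALDOC, LDHA and PFKFB3 at least 1 match was CACGTG, which reads the same on both strands, holds the core on each of them and is also the letters of an E-box. HIF1A itself had 1 match, GCGTG, 199 bases before its start. RefSeq windows were found for 33 of the 38 members, and 28 of the 33 had a match in at least 1 window (84.8%), beside 65% of the 10037 genes past the filter that had a window and 47.4% of all 27305 genes with one. Per window, 37 of 61 held a match (60.7%), beside 43.2% of all 35116 windows and 54.7% of the 14810 windows of genes past the filter. Among the 15 members with an interval call and a window, 14 had a match, the exception being LDHB, and among the other 18 members 14 had one. The median GC content was 68.4% in the windows of members and 64.4% in those of genes past the filter. A match is a description of these letters and not a bound site.

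In YA-A375 against control, the glycolytic group stayed close to its control level, with ALDOC higher and ENO1 and PFKFB3 lower. Of its 24 genes, 1 was at least 1.2-fold higher, beside 17.4% of all genes past the filter, and 2 were at least 1.2-fold lower, beside 16.4%. All 3 were also interval calls, which 6.03% of all genes were in the higher and 4.44% in the lower direction. The median log2 fold change of the 24 genes was -0.01, and that of all genes was -0.02. Since 22 of the 24 genes had a mean of at least 1000 normalised counts, genes of that level are the closer background, and of those 8.69% were higher and 8.33% lower, with interval calls for 5.39% and 4.13%, beside 1 and 2 of the 22 members by either rule.

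In OA-A375 against control, 5 of the 24 genes were at least 1.2-fold higher, beside 21.1% of all genes, and 1 was lower, beside 21.5%. The higher genes were PFKP, ENO2, LDHA, PFKFB4 and the lactate exporter SLC16A3, and the lower gene was PFKFB3. The first 4 were interval calls, beside 9.04% of all genes, and none of the group was an interval call in the lower direction, beside 9.08%. The median log2 fold change was 0.12 against 0.01 for all genes, and 16 of the 24 genes had a value above 0. Of all genes past the filter, between 49% and 50% had a value below 0. Among genes with a mean of at least 100 normalised counts the median was also 0.01. Against the genes of at least 1000 normalised counts, of which 15.3% were higher and 12.7% lower, 4 of 22 members were higher and 1 lower. Interval calls were 4 higher and 0 lower among the 22, beside 9.97% and 8.24% of genes of that level.

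Between the secretomes, 5 of the 24 genes were at least 1.2-fold higher in OA than in YA, beside 21.5% of all genes, and 1 was lower, beside 23%. The higher genes were ENO2, PKM, LDHB, SLC16A3 and PFKFB4, and the lower gene was ALDOC. ENO2, LDHB and PFKFB4 were interval calls in the higher direction, beside 9.03%, and ALDOC in the lower, beside 10%. Among genes of at least 1000 normalised counts the shares with an interval call were 9.93% and 7.65%, and those past the cutoff were 16.6% and 11.9%, beside 4 of 22 members higher and 1 lower. The median log2 fold change was 0.13 against 0.01 for all genes, and 19 of the 24 genes had a value above 0. Of all genes past the filter, between 48% and 49% had a value below 0. Among genes with a mean of at least 100 normalised counts the median was 0.03. In bulk RNA, fewer cells with a transcript and less of it per cell cannot be told apart, here and in every result below.

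**Figure D1:**
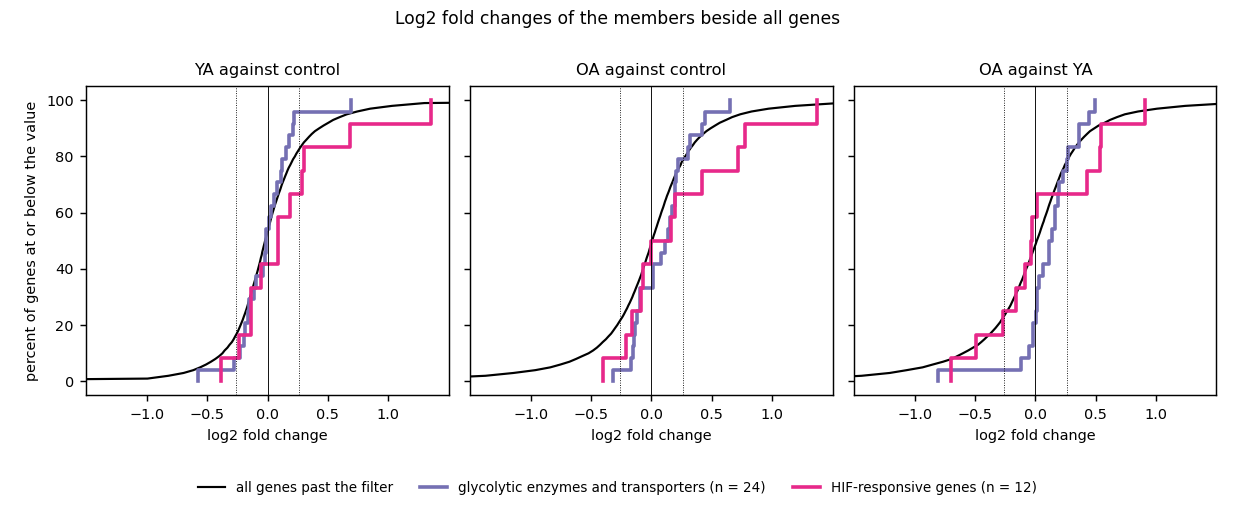
Cumulative percent of genes at or below each log2 fold change for the 14413 genes past the filter (black), the 24 glycolytic genes (violet) and the 12 HIF-responsive genes past the filter (pink), in the 3 comparisons; dotted lines mark 1.2-fold. The glycolytic curve is steeper than that of all genes, with medians of -0.01, 0.12 and 0.13, and the axis is cut at 1.5 log2 units on either side.

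Hexokinase traps glucose as glucose-6-phosphate, and phosphofructokinase commits it to glycolysis. The 6 genes of these steps ranged from -0.18 to 0.21 in log2 fold change in YA and from -0.16 to 0.44 in OA, and PFKP, the platelet-type phosphofructokinase, was the only interval call among them. PFKP (chr10:3066333-3137712) had 4741 counts in control, 5478 with YA and 5404 with OA, which is 1.16-fold control in YA (interval 1.12 to 1.21) and 1.36-fold in OA (1.31 to 1.41) after correction for library size. OA was thus the highest library for PFKP and control the lowest. The other phosphofructokinases did not follow it. The liver type PFKL had 1954, 1990 and 1655 counts, 1.01-fold in OA (0.944 to 1.08), and the muscle type PFKM had 2851, 2551 and 2409, also 1.01-fold (0.953 to 1.06). The hexokinases HK1 and HK2, which phosphorylate glucose, were between 0.880-fold and 0.935-fold control in both secretomes, within the 1.2-fold limits. GPI, which turns glucose-6-phosphate into fructose-6-phosphate, was 1.13-fold control in YA and 1.15-fold in OA.

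Among the enzymes from aldolase to enolase, the widest differences from control were those of ALDOC in YA and of ENO2 in OA. ALDOC, the brain-type aldolase (chr17:28573115-28577264), had 1224 counts in control, 1969 with YA and 947 with OA. It was high in YA alone, 1.61-fold control (interval 1.5 to 1.73), while OA was 0.922-fold control (0.846 to 1.00) and 0.571-fold YA (0.528 to 0.618). ENO2, the neuronal enolase (chr12:6913745-6923698), had 1059, 1175 and 1395 counts. OA was its highest library, 1.57-fold control (1.45 to 1.70) and 1.41-fold YA (1.30 to 1.53), and YA lay near control at 1.11-fold (1.02 to 1.21). ENO1, the main enolase (chr1:8861000-8879250), went the other way from control, with 70451, 57873 and 52719 counts. It was 0.824-fold control in YA (0.815 to 0.833) and 0.891-fold in OA (0.881 to 0.902). The ENO1 interval in YA lay just beyond the limit, but crossed it when libraries were scaled by their total counts. ALDOA, TPI1, GAPDH, PGK1 and PGAM1, which carry the bulk of the middle steps, were between 0.993-fold and 1.16-fold control in YA and between 1.08-fold and 1.15-fold in OA.

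PKM, LDHA and LDHB handle the pyruvate and lactate end of the pathway. LDHA, the lactate dehydrogenase subunit typical of muscle and tumours and a HIF target (chr11:18394388-18408425), had 23033 counts in control, 24925 with YA and 23865 with OA, 1.09-fold control in YA (interval 1.07 to 1.11) and 1.23-fold in OA (1.21 to 1.26). LDHB, the heart-type subunit (chr12:21635342-21757857), had 17581, 15003 and 16215 counts. YA was its lowest library, 0.856-fold control (0.837 to 0.875), and OA exceeded YA 1.28-fold (1.26 to 1.31). PKM, pyruvate kinase, had the same order, with 78504, 68568 and 69610 counts, and was 0.876-fold control in YA (0.867 to 0.885) and 1.21-fold higher in OA than in YA (1.19 to 1.22), an interval that crossed the limit.

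The transporters of glucose and lactate moved little. SLC2A1 (GLUT1) and SLC2A3 (GLUT3), which admit glucose, were between 0.911-fold and 0.989-fold control in both secretomes. SLC16A1 (MCT1), which carries lactate and pyruvate, was 1.05-fold control in YA and 1.16-fold in OA. SLC16A3 (MCT4), the exporter of lactate that HIF induces, had 422 counts in control, 409 with YA and 443 with OA, 1.25-fold control in OA, but its interval reached from 1.09 to 1.43 and so crossed the 1.2-fold limit.

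Of the 3 regulators of flux, PFKFB3 was lower in YA, PFKFB4 was higher in OA, and PDK1 was not called. PFKFB3 (chr10:6144934-6254644) makes fructose-2,6-bisphosphate, the strongest activator of phosphofructokinase, and it had 2134 counts in control, 1427 with YA and 1440 with OA. Both secretomes lay below control, YA at 0.671-fold (interval 0.627 to 0.718) and OA at 0.804-fold (0.751 to 0.860). PFKFB4 (chr3:48517684-48562015), its paralogue and like it inducible by hypoxia, had 1714, 1687 and 1929 counts. It was at control level in YA, 0.987-fold (0.923 to 1.06), and above it in OA, 1.34-fold (1.26 to 1.43), which is 1.36-fold YA (1.27 to 1.45). PDK1, the kinase that keeps pyruvate out of mitochondria and a classical HIF target, had 827, 773 and 628 counts and was 0.938-fold control in YA and 0.905-fold in OA, within the limits.

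**Figure D2:**
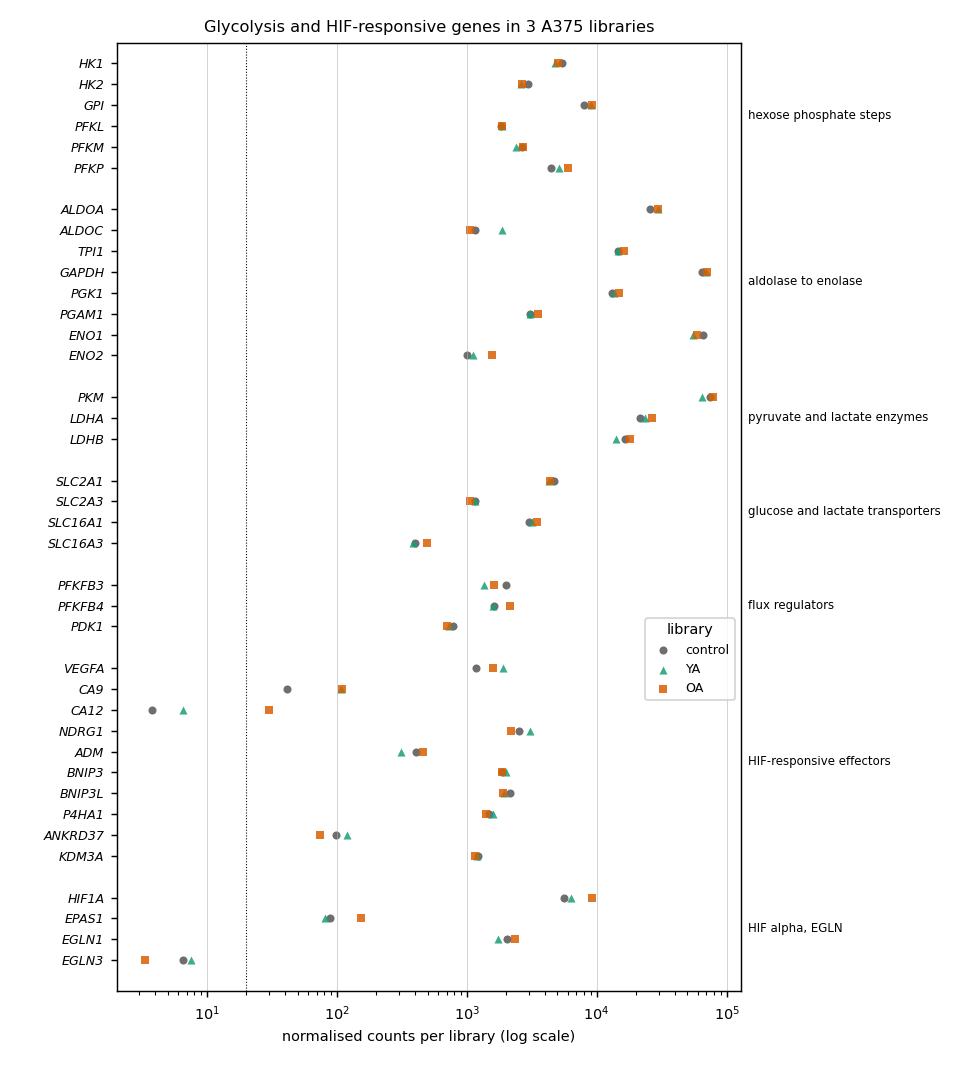
Normalised counts of the 38 members (log axis) in the control (grey circles), YA (green triangles) and OA (orange squares) libraries, ordered by role; the dotted line is the filter of 20. Symbols of most genes overlap, while some genes, among them ALDOC, ENO2, PFKFB3, VEGFA, CA9, CA12, HIF1A and EPAS1, have a library that stands apart.

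Some pairs of paralogues that act at the same step differed between libraries in their share of its counts, and others did not beyond counting error. ENO2 made up 1.48% of ENO1 and ENO2 counts in control, 1.99% with YA and 2.58% with OA, so the ratio of the pair was 1.35 times control in YA (interval 1.24 to 1.47) and 1.76 times in OA (1.62 to 1.91). PFKFB4 made up 44.5% of the PFKFB3 and PFKFB4 counts in control, 54.2% with YA and 57.3% with OA. In YA this came with a lower PFKFB3 and in OA with a lower PFKFB3 and a higher PFKFB4. ALDOC made up 4.29%, 5.85% and 3.48% of the aldolase pair. LDHB made up 43.3%, 37.6% and 40.5% of the lactate dehydrogenase pair, with YA the lowest and control the highest. The hexokinase pair did not differ beyond counting error in either secretome, with HK2 at 35.5%, 35.1% and 34.6% of the pair, and the ratio was 0.984 times control in YA (0.923 to 1.05) and 0.960 times in OA (0.898 to 1.03). These ratios are free of the scaling between libraries, since both genes of a pair are read from the same library.

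**Figure D3:**
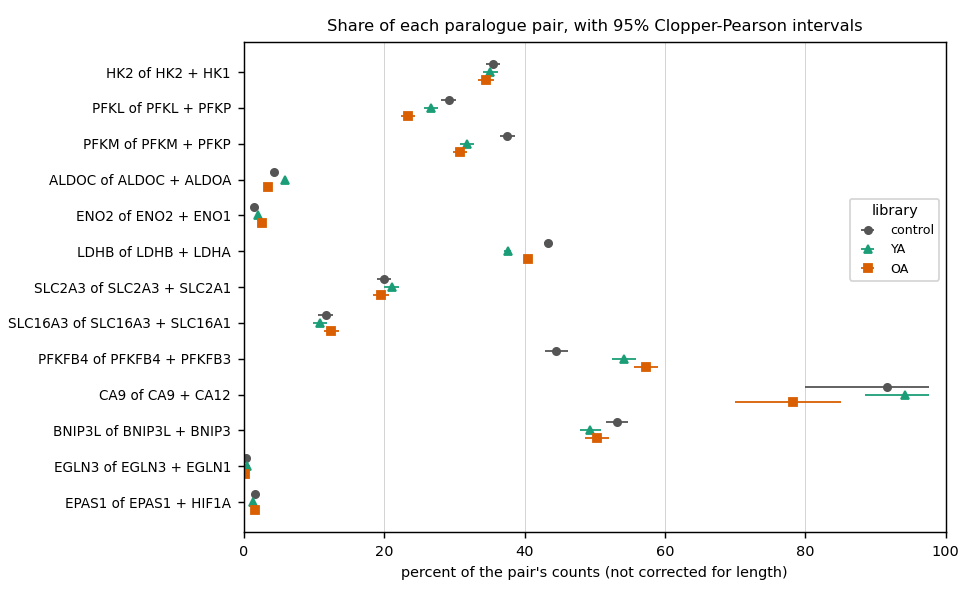
Share of the first-named gene in the counts of each of 13 paralogue pairs, in percent of the counts of the pair, with 95% Clopper-Pearson intervals, in control (grey circles), YA (green triangles) and OA (orange squares). PFKFB4 goes from 44.5% in control to 54.2% in YA and 57.3% in OA, and LDHB from 43.3% to 37.6% and 40.5%.

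As a pathway, the 17 enzymes from hexokinase to lactate dehydrogenase took 1.62% of all counts in control (95% Wilson interval 1.62 to 1.63), against 1.58% with YA (1.57 to 1.58) and 1.71% with OA (1.70 to 1.71). ENO1, PKM and GAPDH alone took 1.02%, 0.941% and 1.02%, and the other 14 enzymes took 0.606%, 0.635% and 0.686%. The lower share in YA therefore lay in the 3 most abundant genes, of which ENO1 and PKM were below control and GAPDH was 1.08-fold above it. The 14 other enzymes had their lowest share in control and their highest in OA.

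As RPKM, reads per kilobase of the principal transcript scaled to library total, GAPDH was the most abundant member in every library at 1714 in control, 1854 with YA and 1844 with OA, followed in control by ENO1 at 1401 and PKM at 1347. ALDOA, TPI1, LDHB and LDHA lay between 445 and 794 in control, and PGK1 at 133. In the other group HIF1A was at 71.0, 81.0 and 117. The level of VEGFA depends most on the length used, at 48.9 in control over its principal transcript of 1199 bases and 4.06 over all 14431 annotated exonic bases. The rarest were EPAS1, EGLN3 and CA12, each under 1 in control. On this scale LDHB was 1.2 times LDHA in control, 0.946 times in YA and 1.07 times in OA, but with all annotated exons in place of the principal transcript it exceeded LDHA in all 3 libraries, at 1.59, 1.25 and 1.41 times, so the order of this pair depends on the length used.

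The HIF-responsive group was more uneven than the glycolytic group. In YA, 4 of the 12 genes past the filter were at least 1.2-fold higher and 1 was lower, with a median log2 fold change of 0.09. In OA, 4 were higher and 1 was lower, with a median of 0.08. Between OA and YA, 4 were higher in OA and 3 lower, with a median of -0.03. The 4 higher genes are 33.3% of the 12 in each comparison, beside 17.4%, 21.1% and 21.5% of all genes, and the lower genes are 8.33%, 8.33% and 25%, beside 16.4%, 21.5% and 23%. Interval calls in the higher direction numbered 2 in YA, 4 in OA and 4 in OA against YA, or 16.7%, 33.3% and 33.3% of the 12, beside 6.03%, 9.04% and 9.03% of all genes. In the lower direction they numbered 0, 0 and 2, the last 16.7% beside 10%. CA12, below the filter, had an interval beyond the limit in OA against both control and YA. Of the 8 members with a mean of at least 1000 normalised counts, 2 were higher in each comparison, beside 8.69%, 15.3% and 16.6% of genes of that level, and 2 were lower, only in OA against YA, beside 11.9%. Of the 12 genes, 9 are effectors and 3 are HIF alpha subunits or prolyl hydroxylases. The effectors alone had 2 higher interval calls in YA and 2 in OA (22.2% each), and 1 in OA against YA (11.1%). At least 1.2-fold higher were 4 effectors in YA (44.4%) and 2 in OA (22.2%), with 1 lower in each (11.1%). In OA against YA 1 effector was at least 1.2-fold higher (11.1%) and 3 lower (33.3%). Their medians were 0.09, -0.07 and -0.09 in the 3 comparisons. All 3 of the other genes were interval calls higher in OA than in YA. These are small numbers of genes.

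Carbonic anhydrase CA9, which helps cells export acid and is among the most HIF-dependent transcripts known, was higher in both secretomes. The gene (chr9:35673856-35681159) had 44 counts in control, 114 with YA and 97 with OA, 2.60-fold control in YA (interval 1.82 to 3.77) and 2.63-fold in OA (1.82 to 3.84), and YA and OA did not differ beyond counting error, at 1.01-fold (0.763 to 1.34). Of the annotated exonic bases of CA9, 38.5% overlap ARHGEF39 on the opposite strand, and use of strand in counting was not given in the sources used here. ARHGEF39 had 247, 300 and 298 counts, 1.22-fold control in YA and 1.44-fold in OA (interval 1.21 to 1.71), smaller folds than those of CA9. In normalised counts ARHGEF39 had 232.7 in control, 283.5 with YA and 334.5 with OA, and CA9 had 41.46, 107.7 and 108.9. In counts the rise from control was thus larger for CA9 in YA but larger for ARHGEF39 in OA. The part of shared reads in the CA9 values was not tested. CA12, a membrane carbonic anhydrase of related function (chr15:63321378-63382161), had 4 counts in control, 7 with YA and 27 with OA, 8.04-fold control in OA with a wide interval of 2.80 to 31.6.

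VEGFA, the main growth factor for blood vessels (chr6:43770184-43786487), had 1258 counts in control, 2016 with YA and 1411 with OA. Control was its lowest library and YA its highest, 1.61-fold control in YA (interval 1.5 to 1.73) and 1.34-fold in OA (1.24 to 1.44). OA was 0.831-fold YA (0.776 to 0.890), past the 1.2-fold cutoff but with an interval that crossed it. NDRG1, a stress-responsive gene induced in hypoxia, had 2687, 3262 and 1951 counts, with YA above and OA below control, and OA was 0.710-fold YA (0.671 to 0.752). ANKRD37, a small ankyrin protein that responds to HIF (chr4:185396021-185400628), had the same order with far fewer reads, 104, 128 and 66 counts, and OA was 0.612-fold YA (0.448 to 0.831). Of its exonic bases, 35.2% overlap UFSP2 on the opposite strand, and UFSP2 was 1.13-fold higher in OA than in YA, the other direction. The part of shared reads was not tested here either. ADM, the vasodilator adrenomedullin (chr11:10304680-10307397), had the opposite order, with 435, 332 and 409 counts, and OA was 1.46-fold YA (1.26 to 1.70).

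The remaining effectors stayed within 1.2-fold of control in both secretomes. BNIP3 and BNIP3L, which direct mitochondria to mitophagy, were 1.06-fold and 0.912-fold control in YA and 1.00-fold and 0.894-fold in OA. P4HA1, a subunit of the collagen prolyl hydroxylase, was 1.06-fold and 0.953-fold, and KDM3A, a histone demethylase that HIF induces, was 0.965-fold and 0.942-fold.

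The transcripts of the HIF alpha subunits were higher in OA. HIF1A (chr14:61695513-61748259) had 5969 counts in control, 6767 with YA and 8257 with OA, 1.14-fold control in YA (interval 1.10 to 1.18) and 1.65-fold in OA (1.59 to 1.70), and OA was 1.45-fold YA (1.4 to 1.5). EPAS1, much less abundant (chr2:46293667-46386703), had 95, 86 and 137 counts, 0.908-fold control in YA (0.670 to 1.23) and 1.72-fold in OA (1.31 to 2.26). EPAS1 made up 1.57% of the counts of the pair in control and its ratio to HIF1A in OA was 1.04 times control (0.801 to 1.36). EGLN1, the main oxygen-sensing prolyl hydroxylase (chr1:231363751-231425044), had 2187, 1849 and 2096 counts and was lowest in YA, 0.848-fold control (0.797 to 0.903), and 1.35-fold higher in OA than in YA (1.26 to 1.43). EGLN3, a hydroxylase that hypoxia strongly induces in many cells, was nearly absent, with 7, 8 and 3 counts, and the ratio of OA to control was 0.511 with an interval of 0.0852 to 2.24.

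**Figure D4:**
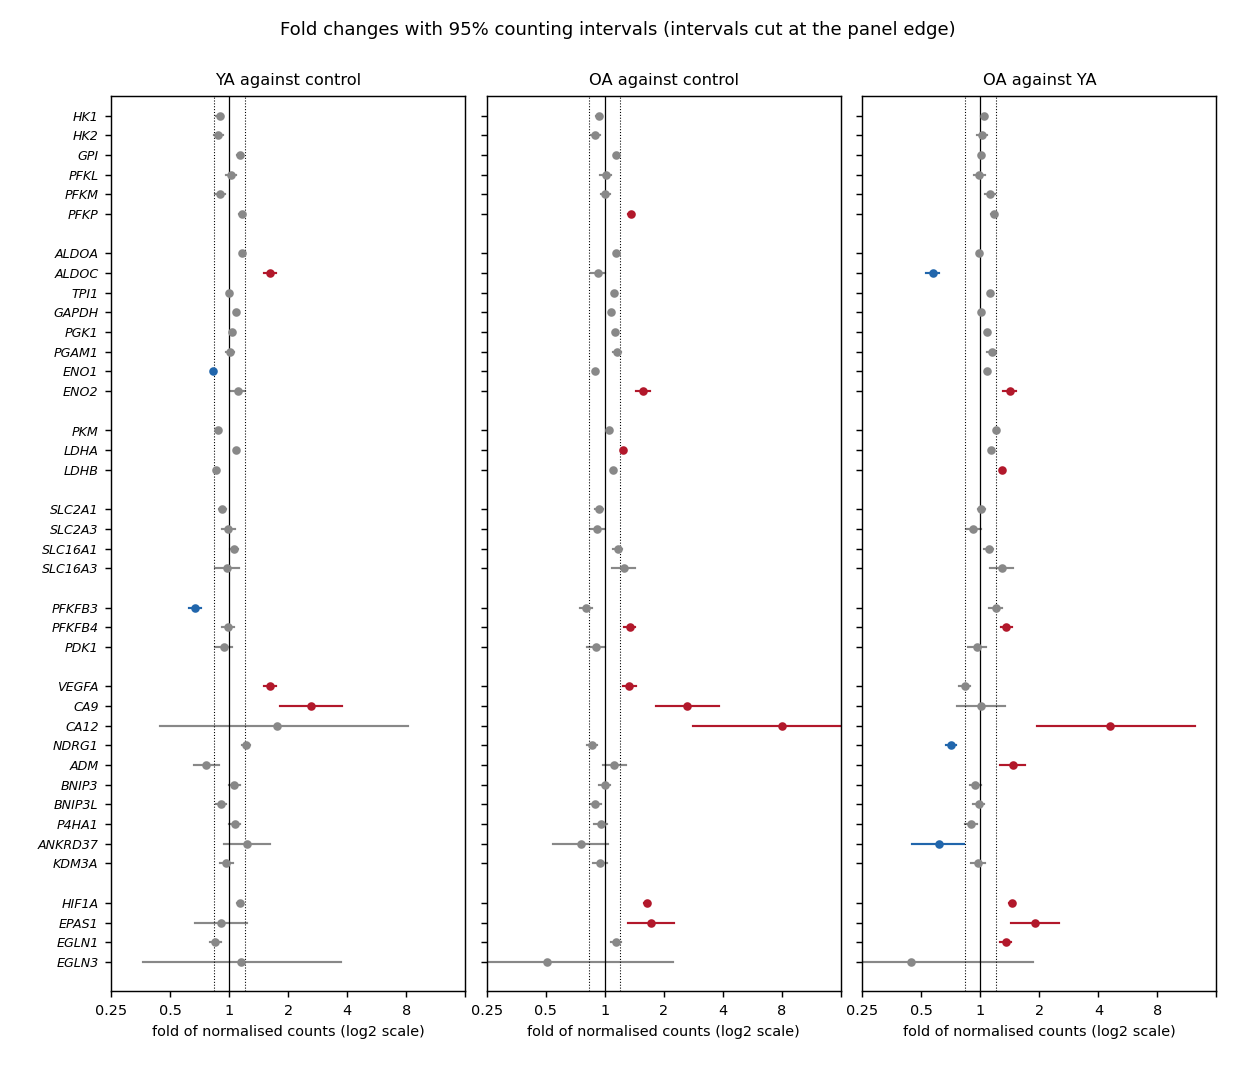
Fold of normalised counts (log2 axis) with 95% counting intervals for the 38 members in YA against control, OA against control and OA against YA. Red and blue mark intervals wholly above or below the 1.2-fold limits (dotted lines), 3 and 2 genes in the first panel, 9 and 0 in the second and 8 and 3 in the third; intervals that pass the panel edge are cut there.

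Other genes of these pathways, from lists that hold no member, had their own counts. Of 56 further HIF-responsive genes, 48 passed the filter, and 15 were at least 1.2-fold higher and 12 lower in YA, 21 higher and 14 lower in OA, and 19 higher and 14 lower in OA against YA. The higher genes are 31.2%, 43.8% and 39.6% of the 48, beside 17.4%, 21.1% and 21.5% of all genes, and the lower genes are 25%, 29.2% and 29.2%, beside 16.4%, 21.5% and 23%. Their interval calls were 7 higher and 5 lower in YA, or 14.6% and 10.4% beside 6.03% and 4.44% of all genes. In OA they were 14 and 9, or 29.2% and 18.8% beside 9.04% and 9.08%, and in OA against YA 13 and 8, or 27.1% and 16.7% beside 9.03% and 10%. The median log2 fold change of the 48 was -0.01 in YA, 0.13 in OA and 0.05 in OA against YA. NDUFA4L2, a HIF-induced brake on the respiratory chain, had 26 counts in control, 132 with YA and 71 with OA, 5.09-fold control in YA (interval 3.33 to 8.08). ANGPTL4, an inhibitor of lipoprotein lipase that fatty acids induce through PPAR as well, had 78, 267 and 183 counts, 3.43-fold in YA (2.66 to 4.48) and 2.80-fold in OA (2.13 to 3.69). IGFBP3, which binds insulin-like growth factors, had 3511, 1231 and 2243 counts, 0.352-fold in YA (0.329 to 0.375).

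In the same list TF, transferrin, had 49 counts in control, 73 with YA and 3 with OA, and its ratio of OA to control was 0.0729 (interval 0.0145 to 0.226). BHLHE41, a repressor of transcription, had 73, 53 and 142 counts and was 3.18-fold higher in OA than in YA (2.31 to 4.45). Each of these genes also answers to signals other than HIF.

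Of 12 genes of the HIF pathway core, such as partners, hydroxylases and the VHL ligase, 11 passed the filter, with 2 higher and 2 lower in YA, none higher and 1 lower in OA, and 1 higher and 4 lower in OA against YA. Shares higher and lower were 18.2% and 18.2% in YA, beside 17.4% and 16.4% of all genes. They were 0% and 9.09% in OA, beside 21.1% and 21.5%, and 9.09% and 36.4% in OA against YA, beside 21.5% and 23%. ARNT2, a partner subunit akin to ARNT, had 3873 counts in control, 2490 with YA and 1547 with OA, and both secretomes lay below control, at 0.645-fold (interval 0.613 to 0.678) and 0.476-fold (0.448 to 0.505). EP300, a coactivator of HIF, was 1.31-fold control in YA (1.24 to 1.39). Between OA and YA, ELOC, a subunit of the VHL ligase, was 1.39-fold higher in OA (1.29 to 1.51) and the coactivator CREBBP was 0.792-fold (0.754 to 0.832).

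Of 29 further glycolytic and gluconeogenic enzymes, 14 passed the filter, and 5 were higher and 3 lower in YA, 5 higher and 2 lower in OA, and 4 higher and 3 lower in OA against YA. These are 35.7% and 21.4% in YA, beside 17.4% and 16.4% of all genes. In OA they are 35.7% and 14.3%, beside 21.1% and 21.5%, and in OA against YA 28.6% and 21.4%, beside 21.5% and 23%. Interval calls were fewer, with 1 higher and 1 lower in YA (7.14% each), beside 6.03% and 4.44% of all genes. In OA they were also 1 and 1 (7.14% each), beside 9.04% and 9.08%. In OA against YA they were 0 and 2 (0% and 14.3%), beside 9.03% and 10%. PCK2, the mitochondrial enzyme that makes phosphoenolpyruvate, had 503, 1489 and 727 counts, 2.97-fold control in YA (interval 2.68 to 3.29) and 1.72-fold in OA (1.54 to 1.93). PGM2L1, which makes glucose-1,6-bisphosphate, was 0.529-fold control in OA (0.384 to 0.723), and PGM2, a phosphopentomutase, was 0.773-fold in YA (0.727 to 0.823).

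Of 27 further hexose and monocarboxylate transporters, 19 passed the filter, with 5 higher and 8 lower in YA, 6 higher and 6 lower in OA, and 9 higher and 5 lower in OA against YA. These are 26.3% and 42.1% in YA, beside 17.4% and 16.4% of all genes. In OA they are 31.6% and 31.6%, beside 21.1% and 21.5%, and in OA against YA 47.4% and 26.3%, beside 21.5% and 23%. The median log2 fold change was -0.24 in YA, -0.04 in OA and 0.04 in OA against YA. Interval calls in YA were 3 higher (15.8%) and 1 lower (5.26%), beside 6.03% and 4.44%. In OA they were 2 higher and 2 lower (10.5% each), beside 9.04% and 9.08%. In OA against YA they were 2 higher (10.5%) and 4 lower (21.1%), beside 9.03% and 10%, so by this rule more were lower than higher. SLC2A11, a fructose and glucose transporter, had 83, 162 and 70 counts, 1.96-fold control in YA (interval 1.49 to 2.58), though 18.4% of its exonic bases overlap other genes. SLC16A5, of the monocarboxylate transporter family, was 1.51-fold in YA (1.39 to 1.65), and SLC37A4, which carries glucose-6-phosphate into the endoplasmic reticulum, was 1.37-fold (1.22 to 1.55). In OA, SLC2A10 had 17 counts against 82 in control, 0.247-fold (0.137 to 0.420), and the sugar phosphate exchangers SLC37A2 and SLC37A3 were 1.66-fold (1.47 to 1.87) and 0.701-fold (0.641 to 0.767). SLC16A8, a retinal lactate transporter, was 0.354-fold in OA against YA (0.180 to 0.654).

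Of 14 genes for the entry of pyruvate into mitochondria, all passed the filter, with 2 higher and 2 lower in YA, none higher and 3 lower in OA, and 1 higher and 2 lower in OA against YA. Shares higher and lower were 14.3% and 14.3% in YA, beside 17.4% and 16.4% of all genes. They were 0% and 21.4% in OA, beside 21.1% and 21.5%, and 7.14% and 14.3% in OA against YA, beside 21.5% and 23%. PDP1, the phosphatase that switches pyruvate dehydrogenase on, had 5621, 3863 and 3622 counts, 0.689-fold control in YA (interval 0.662 to 0.718) and 0.768-fold in OA (0.736 to 0.801). PDK4, a kinase that switches the same complex off, had 949, 1211 and 449 counts, 0.564-fold control in OA (0.503 to 0.631) and 0.440-fold YA (0.394 to 0.491). The kinase PDK1 among the members, by contrast, stayed within 1.2-fold of control in both.

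**Figure D5:**
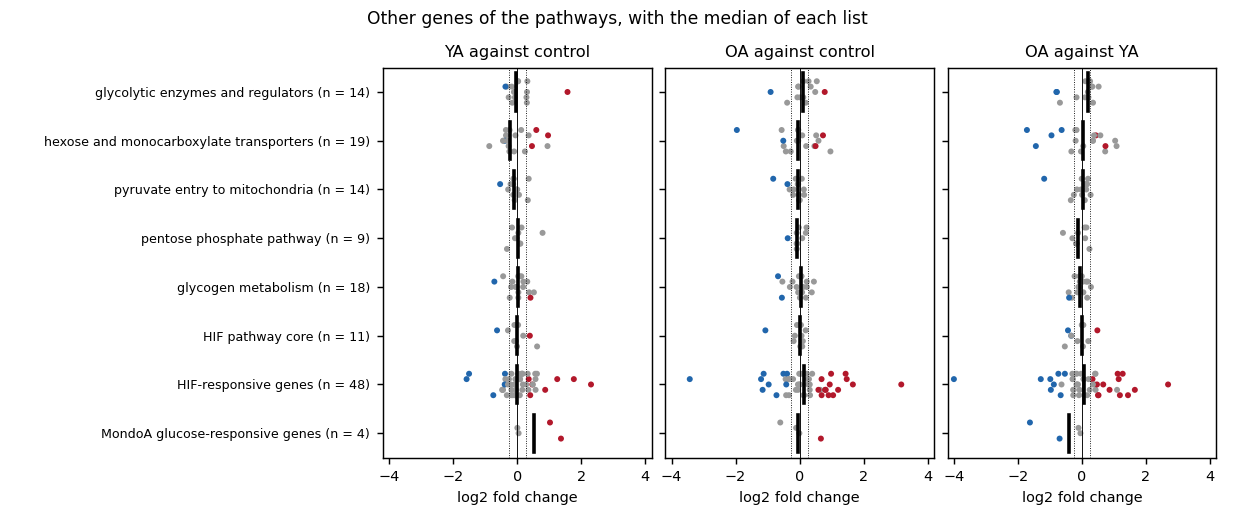
Log2 fold change of each gene past the filter in the 8 lists of further pathway genes, in the 3 comparisons; thick black bars are list medians, dotted lines mark 1.2-fold, and red and blue mark intervals wholly above or below those limits. Of the 8 lists, that of the 48 HIF-responsive genes has the widest range in each comparison, with medians of -0.01, 0.13 and 0.05. It also holds the most genes, the next largest list having 19, and a range tends to widen with the number of genes.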

How the data were processed

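Per the labels, RNA was selected by poly(A), prepared with Agilent SureSelect reagents and sequenced on an Illumina NovaSeq. The deposited table holds unnormalised whole-number counts for each gene, made by the authors. The submitters' processing notes name STAR 2.5.1b, featureCounts, R 3.6.1 and hg38, while settings, use of strand and annotation release were not given in the sources used here. Overlapping genes and near-identical copies are therefore uncertain.

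Counts were divided by DESeq2 1.42.0 median-of-ratios size factors (R 4.3.3), namely 1.06 for the control library, 1.06 with YA and 0.891 with OA. Log2 fold changes used a pseudocount of 1. Folds and their 95% Clopper-Pearson intervals came from the counts without a pseudocount, the pathway share had Wilson intervals, pair shares had Clopper-Pearson intervals, and ratios between paralogues had normal-approximation intervals on the log scale. Without molecular identifiers, PCR copies cannot be told from separate molecules, so intervals cover counting error only. Where a group had at most 3 counts, its ratio was given with the interval. With 1 library per group no edgeR or DESeq2 test was run. The folds and their intervals were tested on simulated counts for YA against control, which held counting error only. The other calculations were not tested in this way.

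Members and lists were chosen with earlier results of these data known. Members are given in full where an interval lay wholly beyond 1.2-fold in at least 1 comparison, and from each further list up to 3 genes per comparison are named, those whose nearer interval bound lay farthest beyond 1.2-fold. Some genes that this rule names are not reported here. All members matched by symbol. Lengths and overlaps came from GENCODE 29 (GRCh38), which held 57433 of the 58037 identifiers. Promoters came from RefSeq (GRCh38.p14). Software was matplotlib 3.10.9, scipy 1.17.1, pandas 2.3.3, numpy 2.4.6 and Python 3.11.15. Alternatives were edgeR 4.0.16 TMM and total-count scaling, other filters, a pseudocount of 5, other cutoffs, list means and another denominator for the pathway share.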

Additional observations from a re-analysis of the deposited data

How the results depend on the processing

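No paired analysis was possible because each group had 1 library, and for the same reason no replicate could be left out. With a pseudocount of 5, with TMM or with scaling by total counts, the 12 list counts stayed within 1.5 times of their value and the 6 list medians kept their sign and moved by at most 0.0135 on the log2 scale. Stricter rules lowered many of the counts. At 2-fold, the glycolytic group had 0 genes higher and 0 lower in each comparison, and the HIF-responsive group had 1 higher in YA, 1 higher in OA, 0 higher in OA against YA and 0 lower in each comparison. At 1.5-fold, the glycolytic group had 0 lower in YA, 1 higher and 0 lower in OA, and 0 higher in OA against YA. It kept 1 higher in YA and 1 lower in OA against YA, in both cases ALDOC. The HIF-responsive group had 2 higher and 0 lower in YA, 0 lower in OA, and 1 higher and 1 lower in OA against YA, while CA9, EPAS1 and HIF1A stayed higher in OA. By the interval rule, the glycolytic group had 0 lower in OA and 3 higher in OA against YA, and the HIF-responsive group had 2 higher and 0 lower in YA and 0 lower in OA. The other 7 list counts stayed within 1.5 times of their value by that rule. With a minimum mean of 100, which removes 2 of the 12 HIF-responsive genes, YA had 2 higher and a median of 0.02 in place of 0.09, and OA had 0 lower. Without a filter 2 were lower in OA, where EGLN3 with 3 counts was added, and the median in YA was 0.13. As a mean in place of a median, the log2 fold change in OA was 0.10 for the glycolytic group and 0.23 for the HIF-responsive group, in which CA9 at 1.37 was the highest value. For the HIF-responsive group the mean was 0.17 in YA, and in OA against YA it was 0.06, of opposite sign to the median of -0.03. With protein-coding genes as denominator, which leaves fewer counts in it, the pathway share was 1.65% in control, 1.61% with YA and 1.74% with OA.

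After seeing the data, single members with an interval call were recomputed under both other scalings and a pseudocount of 5, and none changed direction. Under total-count scaling ENO1 in YA was the only member to lose its interval call. The background of genes with a mean of at least 1000 normalised counts was also added after seeing the data. Depth limits CA12, EGLN3, CA9, EPAS1 and ANKRD37 most, whose intervals are the widest. Reads of near-identical copies are a further limit, with GAPDH pseudogenes at 2.13%, 1.66% and 2.26% of the combined counts of gene and pseudogenes, and BNIP3 pseudogenes at 3.34%, 3.47% and 2.33%.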

Other observations

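Genes at the branches of glycolysis were measured as well. MondoA is a transcription factor that senses glucose-6-phosphate, and of 5 genes listed for it 4 passed the filter, with 2 at least 1.2-fold higher in YA, 1 higher and 1 lower in OA, and 2 lower in OA against YA. The 2 higher in YA are 50% of the 4, beside 17.4% of all genes. In OA the shares are 25% and 25%, beside 21.1% and 21.5%, and the 2 lower in OA against YA are 50%, beside 23%. TXNIP, which restrains glucose uptake and is the best known target of MondoA, had 706 counts in control, 1813 with YA and 939 with OA, 2.58-fold control in YA (interval 2.36 to 2.81) and 1.58-fold in OA (1.44 to 1.75). ARRDC4, a related arrestin, had 122, 248 and 67 counts, 2.04-fold control in YA (1.64 to 2.55), and OA was 0.321-fold YA (0.241 to 0.422). YA was the highest library for both genes. TXNIP also answers to stress and glucocorticoids.

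Of 21 genes of glycogen metabolism, 18 passed the filter, with 4 higher and 2 lower in YA, 2 higher and 4 lower in OA, and 1 higher and 3 lower in OA against YA. These are 22.2% and 11.1% in YA, beside 17.4% and 16.4% of all genes. In OA they are 11.1% and 22.2%, beside 21.1% and 21.5%, and in OA against YA 5.56% and 16.7%, beside 21.5% and 23%. PYGB, the brain-type glycogen phosphorylase that frees glucose from glycogen, had 25291, 33534 and 21354 counts and was 1.33-fold control in YA (interval 1.31 to 1.35), while OA was 0.756-fold YA (0.743 to 0.769). EPM2A, the glycogen phosphatase laforin, was 0.607-fold control in YA (0.483 to 0.760). In OA, GSK3B, a kinase that inhibits glycogen synthase, was 0.680-fold control (0.650 to 0.712).

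Of 11 genes of the pentose phosphate pathway, which makes NADPH and ribose from glucose-6-phosphate, 9 passed the filter, with 1 higher and 1 lower in YA, none higher and 1 lower in OA, and none higher and 2 lower in OA against YA. Shares higher and lower were 11.1% and 11.1% in YA, beside 17.4% and 16.4% of all genes. They were 0% and 11.1% in OA, beside 21.1% and 21.5%, and 0% and 22.2% in OA against YA, beside 21.5% and 23%. PGD, the dehydrogenase of 6-phosphogluconate, had 6745, 6397 and 4372 counts and was the only interval call of the list, 0.772-fold control in OA (interval 0.743 to 0.802).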
